A study of Mus musculus with 6 samples.

Results

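The genes of MHC class I antigen presentation were followed in differentiated C2C12 cells, a mouse myoblast line that fuses into myotubes when serum is lowered. The set was chosen by name and holds 9 genes: H2-K1, H2-D1, B2m, Tap1, Tap2, Tapbp, Psmb8, Psmb9 and Nlrc5. Of these, 8 had a named probe set among the 19505 genes of the array table, and Nlrc5 was not analysed here. The 6 arrays fell into 3 groups of 2. MyoD + Dox cells carried a doxycycline-inducible MyoD lentivirus and received doxycycline, uninduced cells carried the same virus without the drug, and non-transduced cells received doxycycline without virus. All 3 groups were differentiated in low horse serum, with RNA taken on the third day. Per the methods, transduced cells were kept under blasticidin selection, so virus, selection and doxycycline differ together between uninduced and non-transduced cells, and their parts cannot be told apart. Doxycycline and induced MyoD likewise differ together between MyoD + Dox and uninduced cells. Virus, selection and induced MyoD differ together between MyoD + Dox and non-transduced cells. Neither an array of cells with an empty virus nor one of selected cells without virus was analysed here. The labels do not state whether both arrays of each condition were hybridised with RNA of different cultures. The p-values are thus based on array-to-array variation, part or all of which may be technical.

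Class I molecules display peptides from proteins made inside a cell to CD8 T cells. Proteasomes cut these proteins, and the catalytic subunits Psmb8 and Psmb9 replace their constitutive counterparts in the immunoproteasome. Tap1 and Tap2 form the transporter that moves the peptides into the endoplasmic reticulum, where tapasin (Tapbp) holds the empty class I molecule beside the transporter. H2-K1 and H2-D1 encode the heavy chains that bind peptide, and B2m encodes the light chain, beta-2 microglobulin, which all of them need to reach the surface. Nlrc5 is the transactivator of class I promoters, and interferons raise the whole set through STAT and IRF factors. Muscle fibres are known for low class I at rest.

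The signal of a gene is given as log2 of its deposited intensity, and the background of each array, read from 23 background probe sets, lay at 6.01 to 6.15 on that scale. Levels of different genes are read by different probes and are not set against each other. The log2 signal of Myod1, the gene on the virus, was 11.51 and 12.54 in MyoD + Dox cells, 8.996 and 7.91 in uninduced cells, and 8.72 and 10.68 in non-transduced cells. Both MyoD + Dox arrays therefore lay above the other 4, while the second non-transduced array stood apart from the first. All 8 myogenic markers were above background on all 6 arrays. Of 9 leukocyte markers and 5 endothelial markers measured, none was above background on any array, and of 7 class II presentation genes 6 were not. The class I heavy chains are highly alike and vary between mouse strains, and C2C12 was derived from C3H mice. How far each probe set reads neighbouring class I genes or the alleles of this line was not tested.

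The promoters of 4 members with clear signal are shown because their signals moved in parallel over the 6 arrays. Each line holds the 250 bases before the transcription start in RefSeq on build GRCm38.p6, read 5′ to 3′ on the strand of the gene, and capitals mark motif matches on either strand.
H2-K1 (chr17:34000334-34000583, minus strand): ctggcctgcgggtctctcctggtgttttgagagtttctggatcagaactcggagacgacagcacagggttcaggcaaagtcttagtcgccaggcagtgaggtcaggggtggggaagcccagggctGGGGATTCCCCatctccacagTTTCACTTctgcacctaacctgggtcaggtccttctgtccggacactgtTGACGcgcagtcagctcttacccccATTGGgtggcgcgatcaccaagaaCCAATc
H2-D1 (chr17:35262844-35263093, plus strand): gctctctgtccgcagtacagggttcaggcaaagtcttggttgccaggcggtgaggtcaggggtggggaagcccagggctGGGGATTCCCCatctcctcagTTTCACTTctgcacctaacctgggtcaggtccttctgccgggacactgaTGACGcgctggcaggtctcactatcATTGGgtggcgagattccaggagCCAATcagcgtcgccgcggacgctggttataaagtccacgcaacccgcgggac
B2m (chr2:122147437-122147686, plus strand): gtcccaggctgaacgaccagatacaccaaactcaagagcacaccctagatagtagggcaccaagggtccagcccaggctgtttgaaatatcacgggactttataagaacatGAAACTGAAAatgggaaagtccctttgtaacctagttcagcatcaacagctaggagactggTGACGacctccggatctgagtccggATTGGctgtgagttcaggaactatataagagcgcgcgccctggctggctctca
Tapbp (chr17:33919228-33919477, plus strand): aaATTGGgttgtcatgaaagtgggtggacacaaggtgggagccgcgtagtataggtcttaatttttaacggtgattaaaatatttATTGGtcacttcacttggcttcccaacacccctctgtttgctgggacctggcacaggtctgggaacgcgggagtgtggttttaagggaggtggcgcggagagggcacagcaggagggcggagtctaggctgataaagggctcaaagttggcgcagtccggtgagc

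Of the 9 members, 7 had a promoter window of 300 bases in the RefSeq table, from 250 bases before to 50 after the start. Tap2 and Nlrc5 had no entry. H2-K1 had 2 overlapping windows from 2 annotated starts, and only the second is shown and aligned here. The H2-K1 and H2-D1 lines hold the same matches in the same order. First comes the kappaB motif, which NF-kappaB binds and which was searched as GGGA, any base, T, any base and CCC. It stands here as GGGGATTCCCC, where matches on both strands overlap. It is followed by TTTCACTT, a match on the other strand to the short interferon response motif AANNGAAA. The cyclic AMP response core TGACG follows, and then the Y box CCAAT, once on each strand, read as ATTGG and CCAAT. Over these 250 bases, the best local alignment of the heavy chain promoters had 172 identical bases in 192 aligned (89.6%), with a longest shared run of 47 bases. The B2m line holds the full interferon response motif, searched as GAAA and GAAA with any 2 bases between them, as GAAACTGAAA at positions -139 to -130 from the start, then TGACG and ATTGG. The short motif lies inside the full one. The Tapbp line holds ATTGG at 2 places and none of the other motifs. The kappaB motif occurred in 1.1% of the 32851 promoter windows of 300 bases in the table, the full interferon response motif in 3.44%, AANNGAAA in 23.9%, TGACG in 20.8% and CCAAT in 37.4%. The E-box CAGCTG, a form that MyoD binds, occurred in 16.3% of windows and in no member window. The interferon gamma activation motif TTCNNNGAA, found in 8.3% of windows, was seen among the members in Psmb8 alone. The Tap1 and Psmb9 windows lie on opposite strands and overlap by 275 bases, with starts 226 bases apart. These matches describe the reference sequence and are not measured binding.

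The heavy chain H2-K1 had a log2 signal of 12.19 and 10.03 in MyoD + Dox cells, 12.14 and 12.19 in uninduced cells, and 11.88 and 9.32 in non-transduced cells. One array of MyoD + Dox cells and one of non-transduced cells were thus low, the other 4 lay close together, and the uninduced pair sat at the top of the range with the first MyoD + Dox array. The second heavy chain, H2-D1, had the same shape at 8.68 and 6.94 in MyoD + Dox cells, 8.37 and 8.39 in uninduced cells, and 8.11 and 5.82 in non-transduced cells. Its signal on the second non-transduced array was not above background, so the level there is only a bound. Means ± SD (n = 2 arrays each) for H2-K1 were 11.11 ± 1.53 in MyoD + Dox, 12.16 ± 0.03 in uninduced and 10.60 ± 1.81 in non-transduced cells. For H2-D1 they were 7.81 ± 1.23, 8.38 ± 0.02 and 6.97 ± 1.62 in the same groups.

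The light chain B2m had a log2 signal of 18.10 and 17.06 in MyoD + Dox cells, 18.18 and 18.27 in uninduced cells, and 17.93 and 15.58 in non-transduced cells. Both MyoD + Dox arrays lay below both uninduced arrays, although the first did so by little. The group means were 17.58 ± 0.74, 18.22 ± 0.06 and 16.76 ± 1.66 in MyoD + Dox, uninduced and non-transduced cells (SD, n = 2 each). B2m therefore followed the heavy chains down on the second non-transduced array, with a smaller drop on the second MyoD + Dox array.

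**Figure D1:**
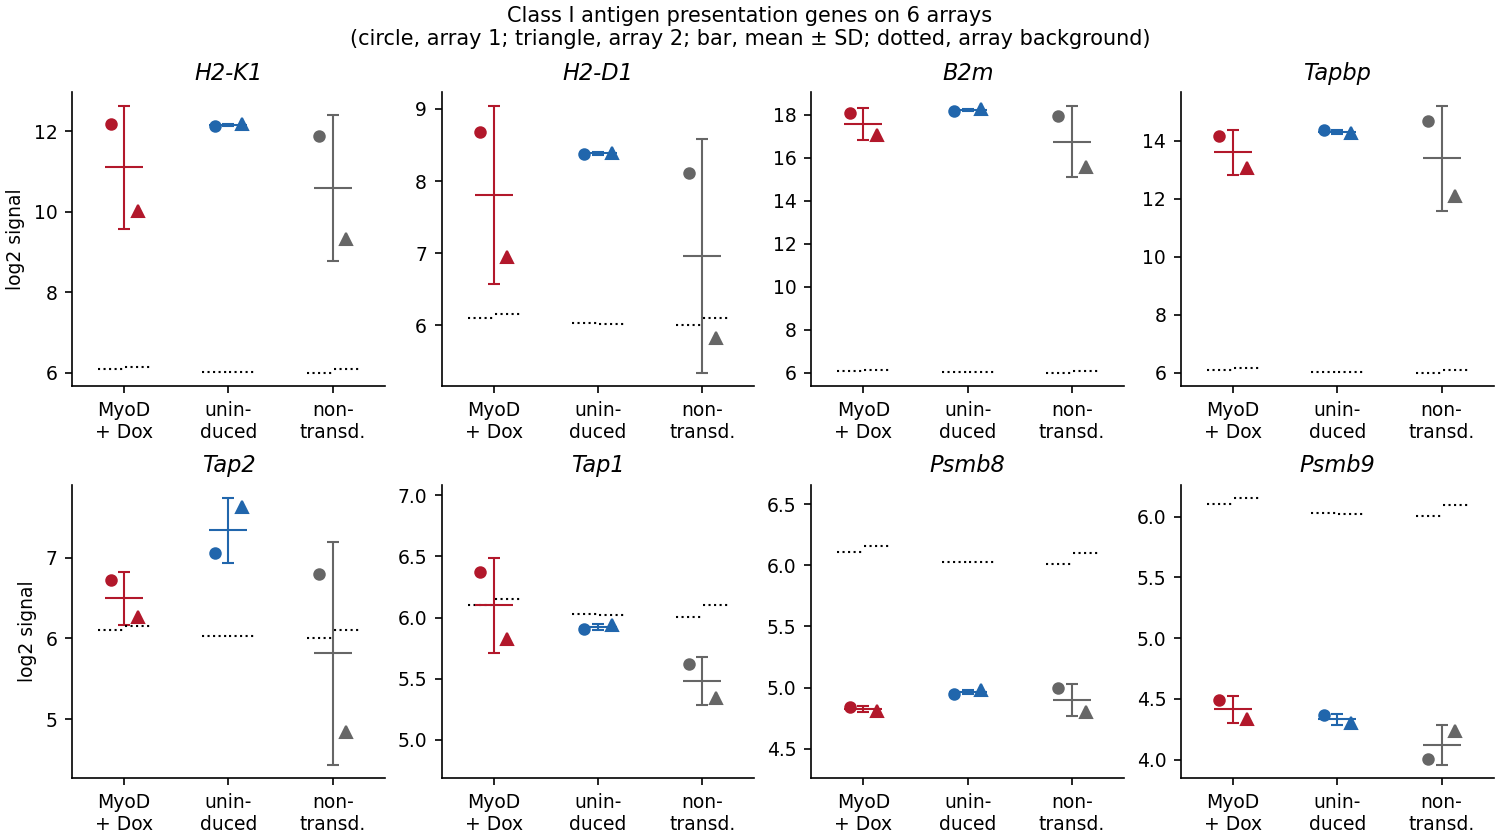
Log2 signal (vertical axis) of the 8 measured members in MyoD + Dox, uninduced and non-transduced cells. Circles are the first and triangles the second array of a group, horizontal bars with whiskers are means ± SD (n = 2), and dotted lines are the background of each array (6.01 to 6.15). The second MyoD + Dox and second non-transduced arrays sit low for H2-K1, H2-D1, B2m, Tapbp and Tap2, while Psmb8 and Psmb9 stay under background.

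Tapbp, the tapasin gene, had a log2 signal of 14.14 and 13.04 in MyoD + Dox cells, 14.35 and 14.25 in uninduced cells, and 14.67 and 12.10 in non-transduced cells. Here the highest and the lowest of all 6 arrays were both non-transduced. The transporter subunit Tap2 lay nearer background at 6.73 and 6.26 in MyoD + Dox cells, 7.05 and 7.62 in uninduced cells, and 6.79 and 4.84 in non-transduced cells. It was above background on 5 arrays and not on the second non-transduced one. Means ± SD (n = 2 each) in MyoD + Dox, uninduced and non-transduced cells were 13.59 ± 0.78, 14.30 ± 0.07 and 13.38 ± 1.81 for Tapbp. They were 6.50 ± 0.33, 7.34 ± 0.40 and 5.82 ± 1.38 for Tap2, the last resting on 1 level that is only a bound. Its partner Tap1 passed background only on the first MyoD + Dox array, at 6.37 and 5.83 in MyoD + Dox, 5.91 and 5.94 in uninduced, and 5.62 and 5.35 in non-transduced cells. With 1 of 6 arrays above background, the differences between groups for Tap1 describe signal near background and give no fold change of the transcript.

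Neither immunoproteasome subunit was above background on any array. Psmb8 read 4.84 and 4.81 in MyoD + Dox, 4.95 and 4.98 in uninduced, and 4.99 and 4.80 in non-transduced cells. Psmb9 read 4.49 and 4.33 in MyoD + Dox, 4.36 and 4.30 in uninduced, and 4.01 and 4.24 in non-transduced cells. These values give only an upper bound, so whether the groups differ in immunoproteasome transcripts could not be read from these arrays. In all, 3 members (H2-K1, B2m and Tapbp) were above background on all 6 arrays, 2 (H2-D1 and Tap2) on 5, 1 on 1 and 2 on none.

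The first comparison was of MyoD + Dox with uninduced cells, which both carried the virus and differed in doxycycline and induced MyoD together. The class I genes with clear signal averaged lower in MyoD + Dox than in uninduced cells, but no difference passed the test. H2-K1 differed by -1.05 (SE 1.003, adjusted p = 0.780), H2-D1 by -0.57 (SE 0.87, adjusted p = 0.861) and B2m by -0.64 (SE 0.78, adjusted p = 0.824), on the log2 scale in limma. Tapbp differed by -0.71 (SE 0.84, adjusted p = 0.821) and Tap2 by -0.84 (SE 0.64, adjusted p = 0.733). The 95% interval for H2-K1 ran from -3.53 to 1.43, and that for B2m from -2.57 to 1.28. At an adjusted p under 0.05, limma called 0 members and 0 of 19505 genes (0%). At an unadjusted p under 0.05, 0 of 8 members were higher and 0 lower, against 4.22% of all genes higher and 3.19% lower. The MyoD + Dox arrays both lay below both uninduced arrays for 4 of 8 members (B2m, Tapbp, Tap2 and Psmb8, which is under background) and above them for 0, against 24.8% and 23.8% of all genes. The median member difference was -0.61, against -0.01 over all genes. The size of these differences rested on which MyoD + Dox array was used. Without the second, they were 0.03 for H2-K1, 0.30 for H2-D1, -0.12 for B2m, -0.15 for Tapbp and -0.61 for Tap2, and without the first -2.13, -1.44, -1.16, -1.26 and -1.07 in the same order. With the 4 arrays of this comparison alone, 1 of 8 members passed an unadjusted threshold (Tap2, adjusted p = 0.218 in limma). So did 3256 of 19505 genes in either direction. The fits without either non-transduced array gave the same values for this comparison.

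Against non-transduced cells, which share the drug with them, MyoD + Dox cells averaged slightly higher for the same genes, and again no difference passed the test. The log2 difference was 0.51 for H2-K1 (SE 1.003), 0.85 for H2-D1 (SE 0.87), 0.82 for B2m (SE 0.78), 0.21 for Tapbp (SE 0.84) and 0.68 for Tap2 (SE 0.64), each with an adjusted p = 1 in limma. H2-D1 and Tap2 were above background on only 1 of the 2 non-transduced arrays, so their values are not exact, and with the other array set to its background the differences were at least 0.71 for H2-D1 and 0.049 for Tap2. limma called 0 members and 0% of all genes, and at an unadjusted p 0 of 8 members passed, against 1.6% of all genes higher and 1.34% lower. The MyoD + Dox arrays both lay above both non-transduced arrays for 2 of 8 members (Tap1 and Psmb9, both near or under background), against 13.9% of all genes. They lay below for 0 of 8, against 14.3%. The median member difference was 0.56, against 0.00 over all genes. The direction depended on single arrays. Without the second non-transduced array the differences were -0.77 for H2-K1, -0.30 for H2-D1, -0.35 for B2m, -1.07 for Tapbp and -0.30 for Tap2. Without the first non-transduced array they were 1.79, 1.99, 2.00, 1.49 and 1.65 in the same order. H2-D1 and Tap2 are under background on the array that remains, and set to that background the differences were at least 1.71 for H2-D1 and 0.39 for Tap2. Without the first MyoD + Dox array the differences were -0.57 for H2-K1, -0.024 for H2-D1, 0.30 for B2m, -0.34 for Tapbp and 0.45 for Tap2, with a member median of 0.095. Without the second MyoD + Dox array they were 1.59, 1.72, 1.34, 0.76 and 0.91, with a median of 0.90.

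For H2-K1, H2-D1, B2m, Tapbp and Tap2 the largest mean differences were between uninduced and non-transduced cells, which share neither virus, selection nor drug. Uninduced cells averaged higher by 1.56 for H2-K1 (SE 1.003, adjusted p = 0.649), 1.42 for H2-D1 (SE 0.87, adjusted p = 0.640) and 1.47 for B2m (SE 0.78, adjusted p = 0.637) on the log2 scale in limma. For Tap2 the difference was 1.52 (SE 0.64, adjusted p = 0.637) and for Tapbp 0.91 (SE 0.84, adjusted p = 0.727). With the second non-transduced array set to its background, H2-D1 was higher by at least 1.28 and Tap2 by at least 0.89. limma called 0 members and 0% of all genes, and 0 of 8 members passed an unadjusted threshold, against 3.11% of all genes higher and 3.12% lower. Both uninduced arrays lay above both non-transduced arrays for 6 of 8 members (H2-K1, H2-D1, B2m, Tap1, Tap2 and Psmb9), against 19.2% of all genes, and below for 0, against 19.2%. The median member difference was 1.17, against 0.00 over all genes. Here too the second non-transduced array set the size. Without it, the differences were 0.28 for H2-K1, 0.27 for H2-D1, 0.29 for B2m, 0.54 for Tap2 and -0.37 for Tapbp. Without the first non-transduced array, limma called 2191 genes, among them B2m (2.64, adjusted p = 0.0165), Tap2 (2.49, adjusted p = 0.0109) and Tapbp (2.20, adjusted p = 0.0309). In that fit the lone non-transduced array is assumed to vary like the other groups. Tap2 is not above background on it, and its difference from that background is at least 1.24.

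**Figure D2:**
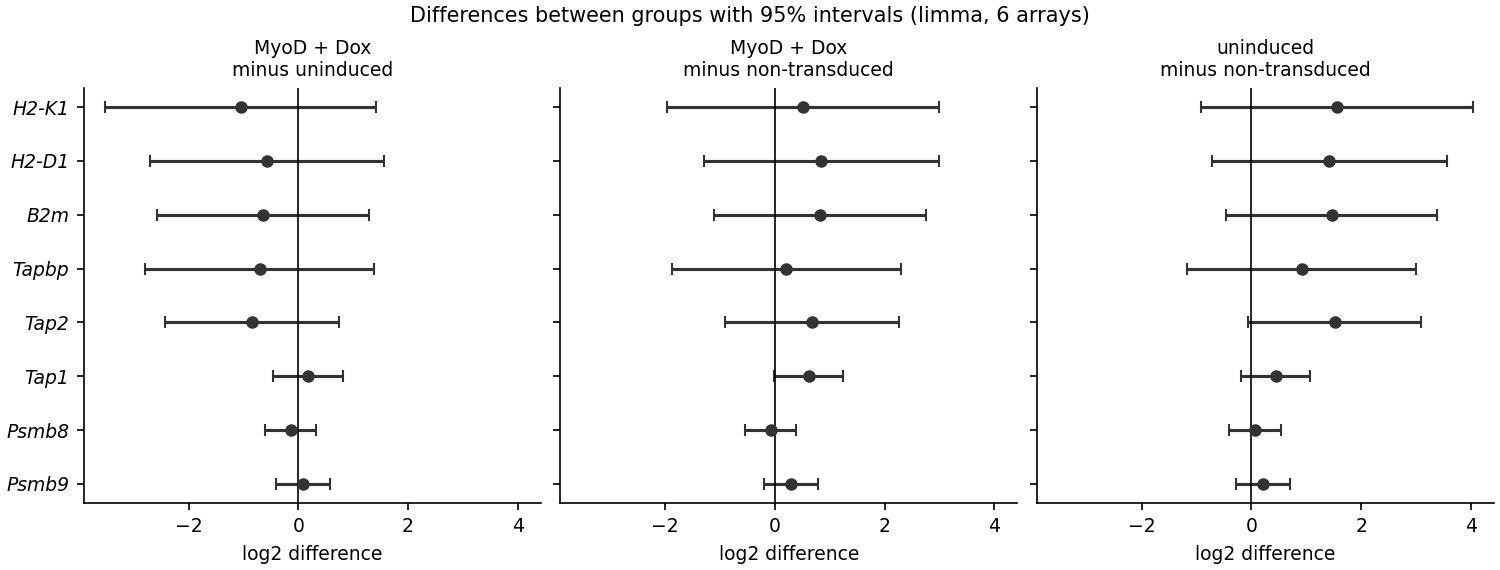
Log2 differences (horizontal axis) of the 8 members in 3 comparisons, with points for the limma estimates and whiskers for their 95% intervals over 6 arrays. All intervals include 0, and those of H2-K1, H2-D1, B2m, Tapbp and Tap2 are wide. Psmb8 and Psmb9 were under background on all arrays and Tap1 on all but 1, so their narrow intervals describe background signal.

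In order of mean level, uninduced cells came first, MyoD + Dox cells next and non-transduced cells last for H2-K1, H2-D1, B2m, Tapbp and Tap2. No neighbours in that order passed the test. The 3 comparisons share arrays, so their values are not independent of each other.

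For H2-K1, B2m and Tapbp, the gap between the 2 non-transduced arrays was wider than any difference between group means. Between these arrays H2-K1 differed 5.88-fold, B2m 5.09-fold and Tapbp 5.92-fold, each lower on the second array. H2-D1 and Tap2 were not above background on that array, and set against its background they were lower there by at least 4.03-fold and 1.62-fold. Gaps of at least 2-fold in that direction were found in 7.8% of all genes on this pair, and in 15% of genes in either direction. The share of all genes falling as much was 1.48% for H2-K1, 1.75% for B2m and 1.47% for Tapbp. Between the 2 MyoD + Dox arrays, H2-K1 differed 4.48-fold and H2-D1 3.34-fold. On that pair B2m differed 2.06-fold, Tapbp 2.15-fold and Tap2 1.38-fold. A drop of at least 2-fold from the first to the second MyoD + Dox array was seen in 1.84% of all genes (3.02% differed by that much in either direction), and one as large as that of H2-K1 in 0.302%. For H2-D1, B2m, Tapbp and Tap2 the share falling as much on that pair was 0.497%, 1.63%, 1.43% and 10.7%. The uninduced pair, by contrast, was close, with log2 gaps of -0.05 for H2-K1, -0.02 for H2-D1, -0.08 for B2m, 0.10 for Tapbp and -0.57 for Tap2. None of these reached 2-fold, as 3.79% of all genes did on that pair, including 2.48% that were lower on the second array. All 5 genes were lowest on the second non-transduced array and had their next lowest signal on the second MyoD + Dox array. This order was shared by 11% of all genes, and by 17.1% of the 8662 genes above background on every array. Fewer cells of a kind and less RNA per cell cannot be told apart in such bulk samples.

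**Figure D3:**
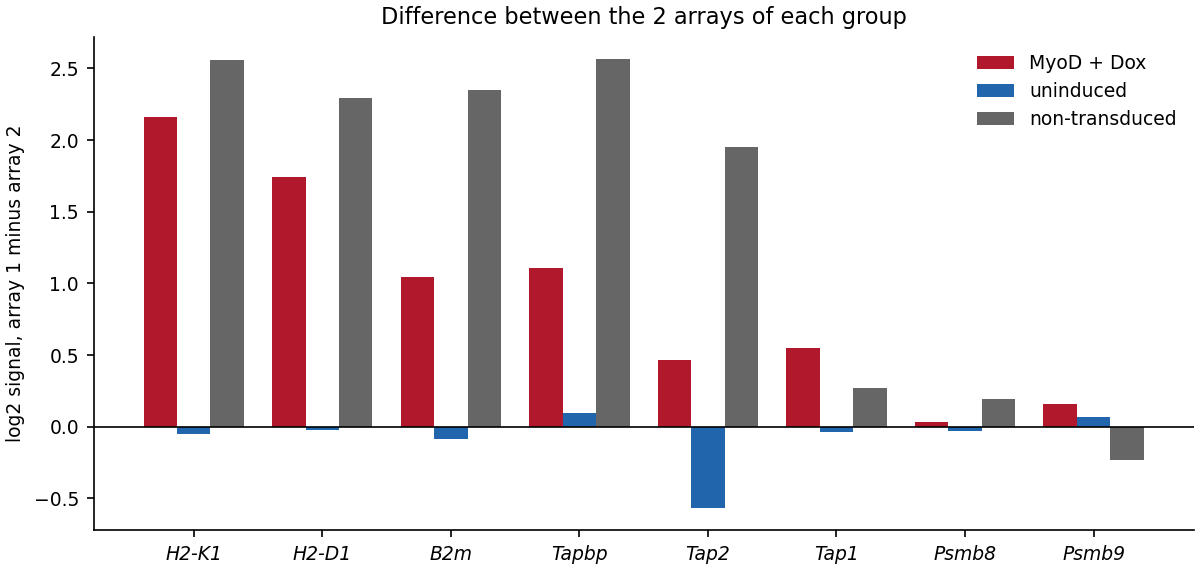
Log2 signal of the first array minus that of the second (vertical axis) for each member in MyoD + Dox, uninduced and non-transduced cells. Bars for H2-K1 reach 2.16 in MyoD + Dox and 2.56 in non-transduced cells, whereas the uninduced bars lie near 0 apart from Tap2 at -0.57. Bars use signals as deposited, also for H2-D1 and Tap2 on the second non-transduced array, Tap1, Psmb8 and Psmb9, where some or all are under background.

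The genes most like the class I profile were sought among 8498 genes above background on all arrays, by Pearson correlation over the 6 arrays with the mean centred signal of H2-K1, B2m and Tapbp. The closest was H2-T-ps, annotated as a class I pseudogene of the T region (r = 0.9970), which by its likeness to other class I genes may share probes with them. It was followed by Pank3 (r = 0.9966), a pantothenate kinase of coenzyme A synthesis, and Slc35a1 (r = 0.9964), which carries CMP-sialic acid into the Golgi. Npc2 (r = 0.9944) encodes a cholesterol carrier of the lysosome and Wdpcp (r = 0.9944) a planar polarity effector needed for cilia. Such values were common, since 273 genes had r above 0.95, and 134 were as strongly correlated in the opposite direction.

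Other class I chains moved in a like way. These nonclassical and class I-like molecules pair with B2m but present to specialised receptors or carry other cargo. Of 21 listed, 15 were measured and 9 were above background on at least 1 array. H2-T23 (Qa-1, a ligand of NK receptors) had a log2 signal of 11.22 and 9.10 in MyoD + Dox, 11.63 and 11.98 in uninduced, and 11.28 and 6.98 in non-transduced cells. The log2 gap between its non-transduced arrays was 4.30, wider than that of H2-K1 or Tapbp at 2.56. Fcgrt, the neonatal Fc receptor, read 12.54 and 11.60 in MyoD + Dox, 13.50 and 13.79 in uninduced, and 13.80 and 10.55 in non-transduced cells. Mr1, which shows vitamin B metabolites to MAIT cells, read 10.88 and 10.57 in MyoD + Dox, 12.11 and 12.47 in uninduced, and 11.85 and 9.97 in non-transduced cells. For Mr1, MyoD + Dox cells were lower than uninduced cells by a log2 difference of -1.56 (SE 0.60) that passed an unadjusted threshold but not the adjusted one (adjusted p = 0.670 in limma). It was the 1 gene of 15 to do so in either direction, against 3.19% of all genes lower. With signals raised to background 0 of 15 passed there, and the count changed with which array was left out. Between uninduced and non-transduced cells 0 of 15 passed with all arrays, and that count too depended on which non-transduced array was left out. All 9 chains above background were lower on the second than on the first non-transduced array, while 7 of 9 were lower on the second than on the first MyoD + Dox array. Of the 6 chains above background on every array, 5 had r between 0.854 and 0.993 to the class I profile. The other was H2-T24 at -0.045, named after its values were seen.

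The peptide loading factors, chaperones and glycan enzymes that fold class I molecules with many other proteins, varied less. All 10 were above background on all arrays. Tapbpl, the tapasin-related peptide editor, averaged 8.55 ± 0.05 in MyoD + Dox and 9.14 ± 0.35 in uninduced cells (SD, n = 2 each), a log2 difference of -0.59 (adjusted p = 0.681 in limma). Ganab, a glucosidase subunit, differed by -0.48 and the chaperone Hsp90b1 by -0.46. Of the 10, 0 passed an unadjusted threshold between MyoD + Dox and uninduced cells, where the median difference was -0.13. Against non-transduced cells 1 was higher in MyoD + Dox cells (1.6% of all genes were), Uggt1, the glucosyltransferase that marks misfolded glycoproteins. That call did not hold without the second MyoD + Dox or the second non-transduced array. More of the 10 passed there as higher without the first non-transduced array. Genes named here by their place in a count, beyond those with the widest difference, were chosen after their values were seen.

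Few proteasome genes passed a test between MyoD + Dox and uninduced cells. The PA28 activator genes Psme1, Psme2 and Psme2b, which interferon raises, averaged lower in MyoD + Dox than in uninduced cells by log2 differences of -0.53, -0.18 and -0.47, and 0 of 4 genes of this inducible list passed an unadjusted threshold. Psme2b is a close copy of Psme2, so their signals may not be separate. The fourth, the immunoproteasome subunit Psmb10, was near background at 6.19 and 5.48 in MyoD + Dox, 5.93 and 5.996 in uninduced, and 6.09 and 7.01 in non-transduced cells. It was thus highest on the second non-transduced array, where the other 3 were lower than on the first. Among the constitutive subunits, Psma5 read 11.56 and 11.48 in MyoD + Dox, 10.90 and 10.16 in uninduced, and 11.26 and 12.27 in non-transduced cells. Psmb7, the subunit that gives way to an inducible one in the immunoproteasome, differed by 0.95 between MyoD + Dox and uninduced cells (SE 0.38, adjusted p = 0.670 in limma), and Psma2 by 0.71 (SE 0.33, adjusted p = 0.680). Of 14 constitutive subunits, 1 was higher at an unadjusted threshold there (Psmb7), against 4.22% of all genes, and 0 lower. That call did not hold with either MyoD + Dox array or the second uninduced array left out, or with signals raised to background. More subunits passed as higher there with either non-transduced array left out. Of the 14, 11 had both MyoD + Dox arrays above both uninduced arrays, against 23.8% of all genes. Between uninduced and non-transduced cells 3 were lower at that threshold (Psma5, Psmb2 and Psmb6), against 3.12% of all genes, and 0 higher. None of the 3 calls held with either MyoD + Dox array, the second uninduced array or the second non-transduced array left out. More subunits passed as lower without the first non-transduced array. With signals raised to background 1 subunit was lower. On the second non-transduced array, where the class I genes were lowest, the 14 subunits averaged 0.61 above their own mean over the 6 arrays.

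Interferon-stimulated genes, the wider programme to which class I belongs, gave the most calls among the lists at an unadjusted threshold when uninduced cells were set against non-transduced cells. Of 26 measured, 12 were higher and 0 lower, against 3.11% and 3.12% of all genes, and 23 had both uninduced arrays above both non-transduced arrays, against 19.2% of all genes. Of the 12, only 6 were above background on both non-transduced arrays, 2 on 1 and 4 on neither, and 1 was under background on every array. With signals raised to background the count of 12 became 3. None passed the adjusted threshold. Most of the 12 calls were lost with the second non-transduced array or either uninduced array left out. More genes of the list passed as higher with either MyoD + Dox array or the first non-transduced array left out. Ifit1, an antiviral RNA-binding protein, had a log2 signal of 10.63 and 6.81 in MyoD + Dox, 10.02 and 10.34 in uninduced, and 6.30 and 5.36 in non-transduced cells. Its measured difference between uninduced and non-transduced cells was 4.35 (SE 1.17, adjusted p = 0.637 in limma). It was not above background on the second non-transduced array, and with that array at its background the difference was at least 3.98. Its partner Ifit3 read 13.50 and 8.31 in MyoD + Dox, 13.24 and 13.52 in uninduced, and 10.61 and 7.16 in non-transduced cells. Gbp2, a guanylate-binding protein, read 9.17 and 6.77 in MyoD + Dox, 10.23 and 10.32 in uninduced, and 9.21 and 5.19 in non-transduced cells, the last under background. Thus for Ifit1 and Ifit3 the first non-transduced array was well below the uninduced pair, whereas for the class I members it stood near that pair. Between MyoD + Dox and uninduced cells 0 of 26 passed an unadjusted threshold, and against non-transduced cells 3 were higher in MyoD + Dox cells (Ifih1, Mx2 and Xaf1), against 1.6% of all genes, and 0 with signals raised to background. Here the MyoD + Dox arrays pulled apart. Relative to their own mean, the 21 genes above background on at least 1 array averaged 1.34 on the first and -0.90 on the second. The 3 calls against non-transduced cells did not hold with the first MyoD + Dox array or either uninduced array left out. More genes of the list passed there as higher without the second MyoD + Dox or the first non-transduced array. Against uninduced cells, some passed as lower without the first MyoD + Dox array and some as higher without the second. Such fits leave 1 array in a group.

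The regulators of these genes held both shapes. Irf9, the DNA-binding part of the type I interferon complex, read 8.40 and 6.53 in MyoD + Dox, 8.59 and 8.59 in uninduced, and 6.41 and 5.55 in non-transduced cells. It was higher in uninduced than in non-transduced cells by a measured 2.61 (SE 0.63, adjusted p = 0.637 in limma). The second non-transduced array was under background for it, and at that background the difference was at least 2.34. Irf1, a factor that drives class I genes, instead resembled the class I members at 9.71 and 8.95 in MyoD + Dox, 10.21 and 10.25 in uninduced, and 10.30 and 8.74 in non-transduced cells. Ifnar2, a chain of the type I interferon receptor, read 13.01 and 12.50 in MyoD + Dox, 13.60 and 14.18 in uninduced, and 13.76 and 12.05 in non-transduced cells. Of 27 regulators measured, 5 were higher (Irf2, Irf7, Irf9, Stat2 and Socs1, the last under background on all arrays) and 1 lower (Irf3) in uninduced than in non-transduced cells at an unadjusted threshold, against 3.11% and 3.12% of all genes. Most of the 5 calls were lost with the second non-transduced array or either uninduced array left out. More regulators passed as higher without the first non-transduced array. With signals raised to background 1 regulator was higher and 4 were lower. Irf3 was also the 1 regulator to pass between MyoD + Dox and uninduced cells, where it was higher by 0.60 (4.22% of all genes were higher). That call did not hold with either uninduced array or the first MyoD + Dox array left out. Other regulators passed there as lower without the first MyoD + Dox array or either non-transduced array. With signals raised to background 2 regulators were higher and 0 lower there. Rfxank was the 1 regulator to pass against non-transduced cells, where MyoD + Dox cells were lower by a difference of -0.52 (1.34% of all genes were lower). That call did not hold with either MyoD + Dox array, either uninduced array or the first non-transduced array left out. Other regulators passed there as higher without the second MyoD + Dox or the first non-transduced array. More passed as lower without the second non-transduced array.

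**Figure D4:**
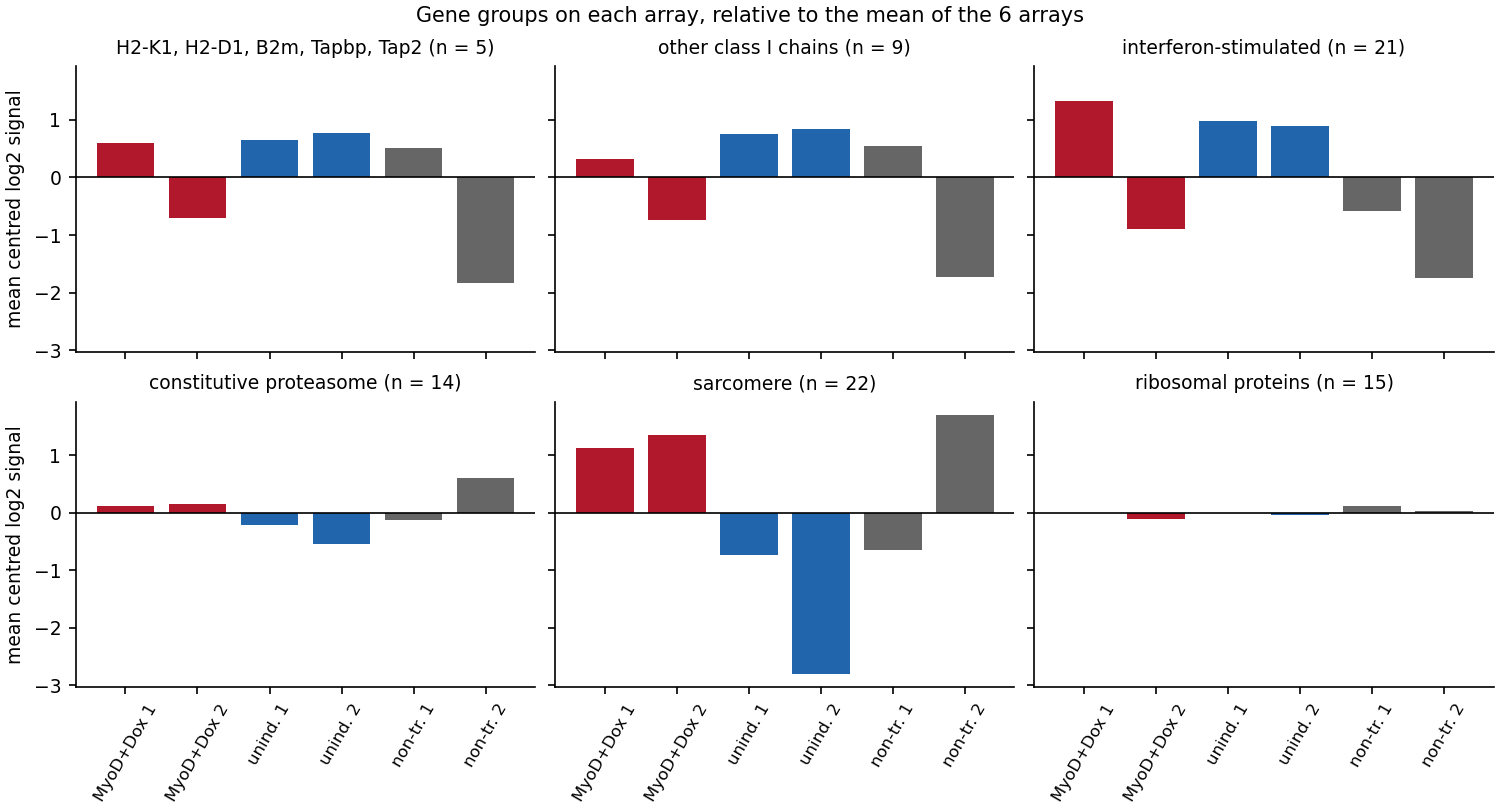
Mean centred log2 signal (vertical axis, relative to the mean of the 6 arrays) of 6 gene groups on each array. The class I panel holds the 5 members above background on at least 5 arrays (H2-K1, H2-D1, B2m, Tapbp and Tap2), and the other panels the genes of each list above background on at least 1 array. The 5 class I genes average -0.70 on the second MyoD + Dox array and -1.83 on the second non-transduced array, the interferon-stimulated genes -0.90 and -1.75, the sarcomere genes 1.35 and 1.71, and ribosomal protein genes stay near 0.

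Sarcomere genes, which mark differentiated muscle, also varied from array to array. The 22 of them above background averaged 1.12 and 1.35 relative to their own mean on the MyoD + Dox arrays, -0.74 and -2.80 on the uninduced arrays, and -0.65 and 1.71 on the non-transduced arrays. The second non-transduced array was thus the highest for sarcomere genes and the lowest for class I genes, at -1.83. The first MyoD + Dox array had high sarcomere genes (1.12) together with a mean of 0.60 over the same 5 class I genes, close to the uninduced arrays at 0.65 and 0.78. The 15 ribosomal protein genes stayed between -0.11 and 0.12 on all arrays. The part of differentiation in the class I differences was not tested.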

How the data were processed

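Gene expression was measured on 6 Clariom S mouse arrays. The authors deposited 1 table of signal intensity per probe set on a linear scale, and log2 of it was taken here. The submitters' notes name Affymetrix Expression Console, and the methods name Transcriptome Analysis Console and SST-RMA without saying which of them wrote these values. The labels name Trizol and the methods an RNeasy kit. Of 28846 probe sets, 19572 had 1 symbol in the platform annotation and 9274 none. For 55 genes with several probe sets the highest mean was kept. Background was the 90th percentile of the background probe sets of each array. Two-sided tests used limma 3.58.1 in R 4.3.3 on all 6 arrays with group as the only term, and Benjamini-Hochberg adjustment over 19505 genes at 0.05. The number of arrays limits the precision. The steps were tested on simulated data.

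The members and lists were chosen with earlier results of these data known. Named genes were the members, up to 3 genes per list with the largest difference between MyoD + Dox and uninduced cells and clear signal in at least 1 group, 5 genes most like the class I profile, and Myod1. Alternatives were 2 other scalings, a filter on the lowest 40% of genes, signals raised to background, another spread estimate, the 4 arrays alone, a replicate block, the mean of probe sets, the methods' t-test and leaving out each array. The t-test is the unpaired one that the methods name for 2 groups in general. For differential expression on the arrays they name Transcriptome Analysis Console.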

Additional observations from a re-analysis of the deposited data

How the results depend on the processing

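With 2 arrays a group, no member difference passed the adjusted threshold in the fit on all arrays, and Psmb8, Psmb9 and mostly Tap1 were too dim to compare. Among the 10 settings other than leaving out an array, only the scalings and raising signals to background changed the size of any member difference. The rest left each difference at its value in the main fit, so they could test only the side of the threshold and not the direction. Over the 10 settings, 216 of 221 member differences kept their direction and side of the threshold and 5 turned. These 5 came from raising signals to background, which left Psmb8 at 0.10 (MyoD + Dox minus uninduced) and 0.076 (MyoD + Dox minus non-transduced), and Tap1, Psmb8 and Psmb9 at -0.027 (uninduced minus non-transduced); below background, that setting returns the difference between array backgrounds. It also gave Tap2 0.049 in place of 0.68 (MyoD + Dox minus non-transduced) and 0.89 in place of 1.52 (uninduced minus non-transduced), and a median member difference of 0.21 in place of 0.56 (MyoD + Dox minus non-transduced).

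With the 4 arrays alone, limma called 15 genes between MyoD + Dox and uninduced cells (14 higher, 1 lower). At an unadjusted threshold 1 member (Tap2, lower) passed, as did 3256 of 19505 genes in either direction. The methods' t-test gave 1 member there at that threshold (Psmb8, under background), against 1702 genes in either direction. Between MyoD + Dox and non-transduced cells it called 1 gene after adjustment (Nat10, named after its values were seen), with 0 in the other comparisons. The cause of these changes was not tested.

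Leaving out 1 array at a time gave a median member difference of -1.12 to -0.05 for MyoD + Dox against uninduced cells. For MyoD + Dox against non-transduced cells it gave 0 to 169 genes, 0 to 5 members and a median member difference of -0.30 to 1.57. For uninduced against non-transduced cells it gave 0 to 2191 genes, 0 to 5 members at an unadjusted threshold, 0 to 3 members after adjustment and a median of 0.29 to 2.35. Over these fits, 14 of 144 member differences turned, 3 newly passed the adjusted threshold and 127 did neither. Leaving out an array of the group outside a comparison cannot change its differences, so such fits could not turn them. The differences that turned ranged, for MyoD + Dox minus uninduced, from -2.13 to 0.028 (H2-K1), -1.44 to 0.30 (H2-D1) and -0.096 to 0.45 (Tap1). For MyoD + Dox minus non-transduced they ranged from -0.77 to 1.79 (H2-K1), -0.30 to 1.99 (H2-D1), -0.35 to 2.00 (B2m), -0.30 to 1.65 (Tap2), -1.07 to 1.49 (Tapbp) and -0.17 to 0.019 (Psmb8), and for uninduced minus non-transduced from -0.37 to 2.20 (Tapbp) and -0.029 to 0.16 (Psmb8).

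With the replicate number as a block, limma called 0 genes and 0 members passed in each comparison. Each group has 1 array of each number, so the medians of -0.61, 0.56 and 1.17 stay those of the main fit by construction. The numbers are shared labels only: deviations of same-numbered arrays correlated at -0.05 (MyoD + Dox and uninduced), 0.41 (MyoD + Dox and non-transduced) and -0.35 (uninduced and non-transduced). A crossed pairing of uninduced and non-transduced arrays, added after seeing the data, called 0 genes, with 4 members higher at an unadjusted threshold. The share of all genes at that threshold is not given here for that fit. The list results without each array or with signals raised to background were likewise added after seeing the data.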
